A study of Mus musculus with 12 samples.

Results

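The 10 genes described here are 7 ligands of the epidermal growth factor (EGF) family, Areg, Ereg, Hbegf, Tgfa, Btc, Nrg1 and Nrg2, and 3 of their receptors, Egfr, Erbb2 and Erbb3. They were taken by gene symbol, and all 10 were found among the 38349 genes of the deposited table. Nrg1 was listed under 2 gene IDs, and the ID with the larger total count was kept. RNA was sequenced from whole lung of wild-type mice in 4 groups of 3 libraries each. Control is the normal group, and ALI is the model of acute lung injury, made with hypoxia and LPS (a component of the outer membrane of bacteria) according to the series title. The MSC and tpMSC groups were treated with MSC or tpMSC, and the title sets both treatments in that injury. How tpMSC differ from MSC is not given in the sources used here, nor are the age and sex of the mice, the dose or the time of sampling. The labels do not say that libraries come from separate animals, so the p-values measure the spread between these libraries, which may be technical.

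Libraries held 53083002 to 70209229 counts. Markers of alveolar, airway, endothelial and immune cells were present, and no gene on the 17 marker lists was at 0 in every library. MSC replicate 3 lay farthest from the other libraries of its group, with root mean square log2 differences of 0.883 and 0.932, where all other pairs within a group lay between 0.662 and 0.805. Summed markers of adipose tissue ran from 3.1 to 32.53 FPKM, with overlapping ranges in the 4 groups. Those of cardiac muscle ran from 9.56 to 14.62 FPKM in ALI and from 14.71 to 54.72 in tpMSC, and Control and MSC overlapped both.

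EGF family ligands are made as membrane-anchored precursors and are released by metalloproteases, chiefly ADAM17, which needs an iRhom partner to reach the cell surface. Amphiregulin (Areg), epiregulin (Ereg), heparin-binding EGF (Hbegf), transforming growth factor alpha (Tgfa) and betacellulin (Btc) bind EGFR, and neuregulins (Nrg1, Nrg2) bind ERBB3 or ERBB4. ERBB2 has no known ligand and acts as the preferred partner of the other receptors. In the lung this family is best known for the repair of airway and alveolar epithelium after injury.

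Ereg and Hbegf were higher in injured lungs and Nrg2 was lower, and each stood closer to its Control level in both treated groups. Egfr was higher in ALI, and Btc was higher in MSC than in ALI. A gene was called changed when its Benjamini-Hochberg adjusted p in edgeR's quasi-likelihood test was under 0.05 over the 22915 genes tested, and all 10 members were among those genes. In ALI against Control 4 of 10 members were called, 3 higher (Ereg, Hbegf, Egfr) and 1 lower (Nrg2), where 39.8% of all genes were called, 20.2% higher and 19.6% lower. In MSC against ALI 4 of 10 were called, Nrg2 and Btc higher and Ereg and Hbegf lower, where 10.2% of all genes were called, 5.03% higher and 5.21% lower. In tpMSC against ALI 3 of 10 were called, Nrg2 higher and Ereg and Hbegf lower, where 23.1% of all genes were called, 11.6% higher and 11.5% lower. The median log2 fold change of the members was 0.26 in ALI against Control, -0.046 in MSC against ALI and -0.021 in tpMSC against ALI, and over all genes it was -0.022, 0.018 and 0.010. Both treated groups are set against the same 3 ALI libraries, which also enter the comparison with Control. In whole lung, fewer cells of a type and less RNA per cell cannot be told apart.

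**Figure D1:**
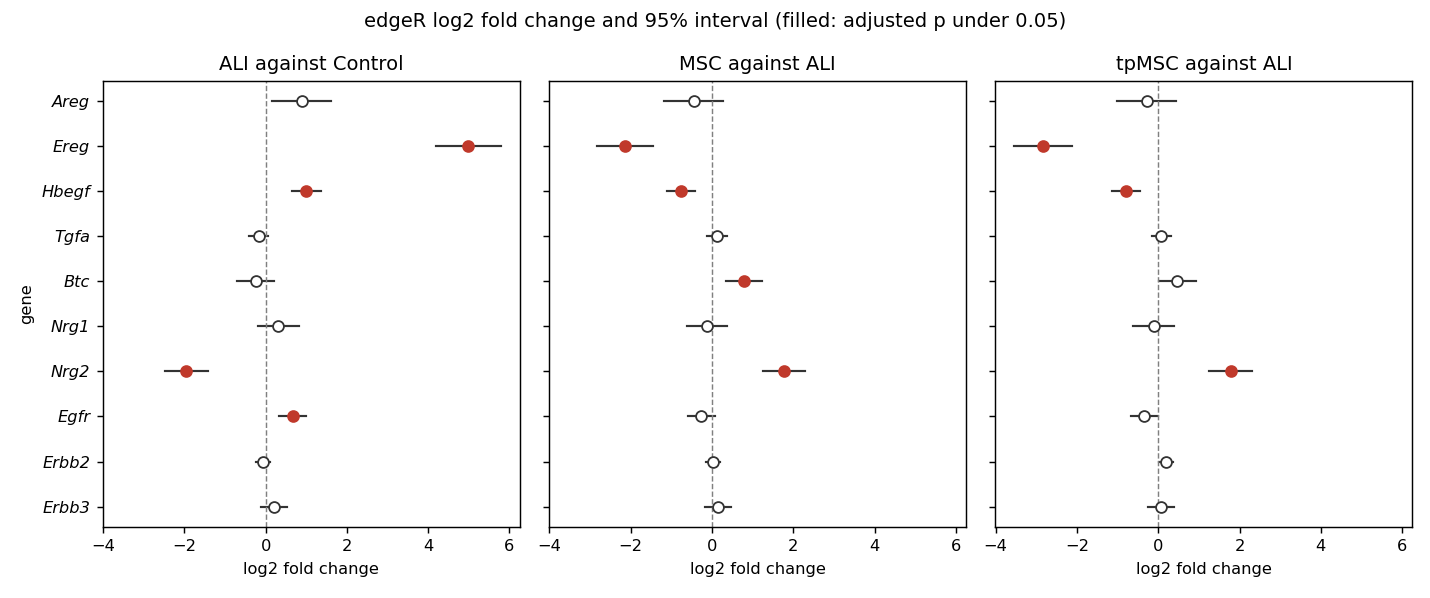
Log2 fold change of each member (points) with its 95% interval (lines) in 3 comparisons, from edgeR; filled points were called. Ereg, Hbegf and Nrg2 are filled in all 3 panels, Egfr only in ALI against Control and Btc only in MSC against ALI.

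Of the EGFR ligands, Areg, Ereg and Btc lie in 1 stretch of chromosome 5 with Epgn, the gene of a further EGFR ligand, epigen. On GRCm38 (GENCODE M21) the 4 are the only protein-coding genes from the start of Epgn to the end of Btc, a region of 375.5 kb. Ereg (ENSMUSG00000029377, chr5:91074622-91093646, + strand) begins 39.4 kb after Epgn. Areg (ENSMUSG00000029378, chr5:91139599-91148432, + strand) follows 46 kb after Ereg, and Btc (ENSMUSG00000082361, chr5:91357261-91402994, - strand) follows 208.8 kb after Areg. The 250 bases before the annotated start were read from RefSeq's promoters on GRCm38.p6, which held 5 of the 10 members. Areg and Btc are printed as the members among the neighbours that had an entry and Egfr as the receptor called in ALI. Capitals mark TGACGTCA, the cyclic AMP response element, and TATAAA, known as the TATA box.
Areg (chr5:91139349-91139598, + strand): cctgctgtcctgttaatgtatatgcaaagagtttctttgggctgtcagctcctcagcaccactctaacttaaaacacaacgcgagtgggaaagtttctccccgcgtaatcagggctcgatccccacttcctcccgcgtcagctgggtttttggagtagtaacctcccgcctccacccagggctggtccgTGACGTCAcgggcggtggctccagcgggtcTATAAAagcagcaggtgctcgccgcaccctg
Btc (chr5:91402995-91403244, - strand): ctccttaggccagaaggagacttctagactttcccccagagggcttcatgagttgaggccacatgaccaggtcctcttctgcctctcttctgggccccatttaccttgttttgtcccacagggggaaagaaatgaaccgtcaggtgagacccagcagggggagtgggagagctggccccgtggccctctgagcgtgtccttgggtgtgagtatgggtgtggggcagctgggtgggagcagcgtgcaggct
Egfr (chr11:16751953-16752202, + strand): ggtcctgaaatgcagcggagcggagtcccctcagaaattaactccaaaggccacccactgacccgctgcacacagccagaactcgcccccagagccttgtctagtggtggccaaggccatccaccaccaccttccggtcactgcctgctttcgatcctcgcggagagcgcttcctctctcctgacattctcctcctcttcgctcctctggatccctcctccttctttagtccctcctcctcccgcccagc
The upstream stretch of Areg held 1 copy of TGACGTCA, whose first base lay 61 bases before the start, and 1 TATAAA at 31 bases. Searched on both strands, these letters were found in 1.55% and 12.4% of the 32851 promoters of this length. The stretches of Btc and Egfr held neither, and none of the 3 held TGANTCA, the AP-1 element, which 6.75% of promoters held. Epgn, the neighbour outside the 10 members, also had an entry, which is not printed. It held TATAAA at 86 bases and no TGACGTCA. GGGCGG, the GC box, was found once in Areg, at 52 bases, overlapping no other motif in capitals, and once in Egfr, at 9 bases, and 32.7% of promoters held it.

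Ereg had the largest change among the members. It was listed at 0.12, 0.07 and 0.06 FPKM (fragments per length of transcript and depth of library) in Control, from 34, 21 and 18 counts, and at 1.96, 2.29 and 3.15 FPKM in ALI, from 580, 553 and 908 counts. Every ALI library was far above every Control library. The fitted rise was 31.6-fold (log2 fold change 4.98 ± 0.37 SE, n = 3 per group, edgeR adjusted p = 2.68e-06). With MSC the 3 libraries held 0.35, 0.59 and 0.78 FPKM, and with tpMSC 0.35, 0.33 and 0.38 FPKM. All treated libraries therefore lay below ALI and above Control. Ereg fell by 2.14 ± 0.31 (SE) on the log2 scale in MSC against ALI (edgeR adjusted p = 0.00195) and by 2.83 ± 0.32 in tpMSC against ALI (adjusted p = 0.000168). It remained 7.16-fold above Control in MSC (adjusted p = 0.000464) and 4.44-fold above Control in tpMSC (adjusted p = 0.00253). On log2(FPKM + 1), a scale that compresses low values, limma did not call the second of these (adjusted p = 0.102).

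Neutrophil markers moved with Ereg. All 6 neutrophil markers on the list were higher in ALI and all 6 were lower in both treated groups than in ALI. Their summed level was 139.9 to 232 FPKM in Control, 3675 to 4163 in ALI, 455 to 969.6 in MSC and 446 to 600.9 in tpMSC. The 6 monocyte and macrophage markers summed to 60.3 to 69.1 FPKM in Control, 572 to 611 in ALI, 228 to 317 in MSC and 144 to 232 in tpMSC. Of these 6, 3 were higher and 1 lower in ALI against Control, 1 was lower in MSC against ALI, and 3 were lower and 1 higher in tpMSC against ALI. The list medians of the log2 fold change in these 3 comparisons were 1.08, 0.008 and -0.43. Most of the sum in ALI was Cd14. Cd14 was called in all 3 comparisons, from 10.8 FPKM in Control to 430.4 in ALI, 114 in MSC and 66.8 in tpMSC (means, n = 3). The part of these cells in the Ereg and Hbegf levels was not tested.

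Areg, which airway epithelium, group 2 innate lymphoid cells and regulatory T cells can make, was listed at 2.79, 1.87 and 1.81 FPKM in Control and at 3.79, 3.92 and 3.8 FPKM in ALI. The groups did not overlap, but the difference was just short of a call (log2 fold change 0.89 ± 0.33 SE, edgeR adjusted p = 0.0508). It was called under 5 of 15 alternatives, among them DESeq2 (adjusted p = 0.0193) and the fit without Control replicate 1 (edgeR adjusted p = 0.0416). In treated lungs Areg was scattered: 2.65, 1.66 and 4.4 FPKM in MSC and 3.5, 3.95 and 2.15 FPKM in tpMSC. Both treated groups overlapped Control as well as ALI, and neither was called against ALI (edgeR adjusted p = 0.448 and 0.58). The 6 markers of group 2 innate lymphoid cells and type 2 responses summed to 8.9 to 10.1 FPKM in Control and 4.59 to 6.45 in ALI. Of the 5 tested, 2 were called lower. Most counts of this list were from Rora, with 41205 over all libraries. Il1rl1 held 4568, Gata3 4223, Klrg1 1924, Il5 141 and Il13 17. The 4 regulatory T cell markers summed to 1.19 to 2.0 FPKM in Control and 3.28 to 4.03 in ALI, and 2 of 4 were called higher. The 4 club cell markers summed to 15560 to 23830 FPKM in Control and 8028 to 9049 in ALI, with 3 lower and none higher. The 4 ciliated cell markers summed to 196 to 253 and 84.4 to 108 FPKM, with 2 lower and 1 higher. The 4 basal cell markers summed to 0.53 to 0.89 and 0.39 to 0.86 FPKM, with 1 higher and none lower. The part of all these cells in the Areg level was not tested.

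Btc was low throughout. Control libraries held 0.61, 0.71 and 0.46 FPKM and ALI libraries 0.59, 0.41 and 0.43, so the groups overlapped, and the difference was not called (edgeR adjusted p = 0.374). MSC libraries held 0.75, 0.85 and 0.96 FPKM, all above ALI and above Control, and tpMSC libraries 0.67, 0.66 and 0.7. Btc rose by 0.79 ± 0.20 (SE, log2, n = 3 per group) in MSC against ALI (edgeR adjusted p = 0.0321). That call was lost when ALI replicate 2 or 3, or MSC replicate 1 or 3, was left out (adjusted p = 0.0906, 0.111, 0.0504 and 0.0831), and when only the 2 groups compared were fitted (adjusted p = 0.0844). In tpMSC against ALI the difference of 0.47 ± 0.20 was not called (adjusted p = 0.125). Epgn, the fourth neighbour, was near the lower end of what these libraries could show, with 4 to 11 counts in Control, 14 to 40 in ALI, 7 to 20 in MSC and 3 to 17 in tpMSC. It was called higher in ALI against Control (log2 fold change 2.27 ± 0.70 SE, edgeR adjusted p = 0.0221), and the call was lost without Control replicate 1 or 2 or ALI replicate 1 or 3 (adjusted p from 0.0585 to 0.0869).

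**Figure D2:**
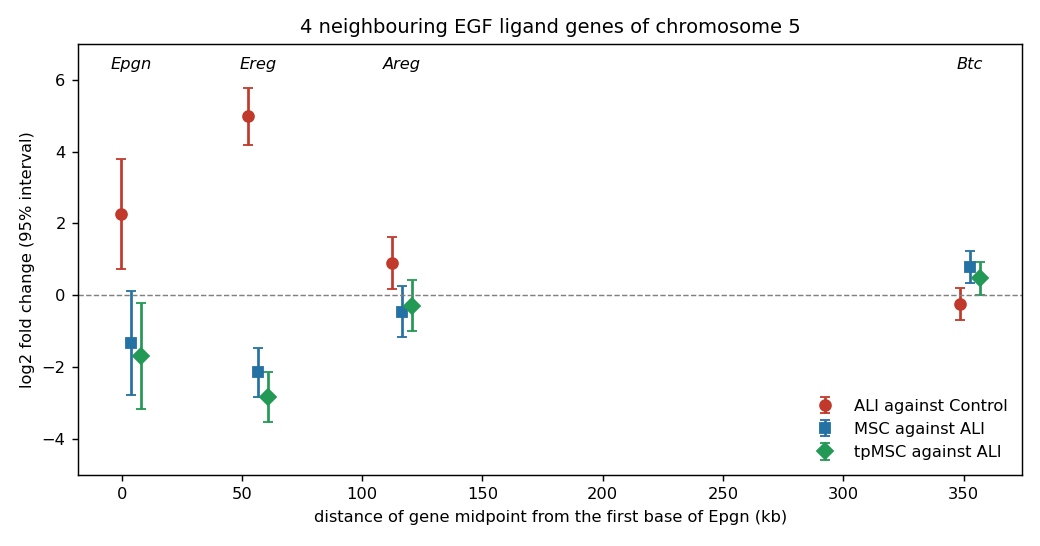
Log2 fold change (95% interval) of the 4 neighbouring ligand genes against distance along chromosome 5 in kb, for 3 comparisons; points are shifted slightly sideways for legibility. Ereg stands at 4.98 in ALI against Control, with Epgn at 2.27, Areg at 0.89 and Btc at -0.25. The intervals of Areg include 0 in both treated groups.

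Hbegf, a heparin-binding ligand made by macrophages and epithelium, was the most abundant ligand in all 12 libraries. Control libraries held 10.1, 8.76 and 9.42 FPKM, and ALI libraries 18.4, 18.0 and 17.8. The groups did not overlap, and Hbegf was 2.0-fold higher in ALI (log2 fold change 1.0 ± 0.16 SE, n = 3 per group, edgeR adjusted p = 0.000452). MSC libraries held 12.6, 11.3 and 9.4 FPKM and tpMSC libraries 8.93, 8.99 and 13.95, so all 6 were below ALI. Hbegf fell by 0.76 ± 0.16 (SE, log2) in MSC against ALI (edgeR adjusted p = 0.0126) and by 0.79 ± 0.16 in tpMSC against ALI (adjusted p = 0.00439). Neither treated group was called against Control (adjusted p = 0.325 and 0.413). Tgfa, an EGFR ligand of epithelium and macrophages, was listed at 2.75, 3.32 and 2.71 FPKM in Control and 2.5, 2.56 and 2.4 in ALI. These groups did not overlap either. Over all 12 libraries it ran from 2.4 to 3.32 FPKM, and it was called in none of the 6 comparisons (lowest edgeR adjusted p = 0.237, in ALI against Control).

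Nrg2, a neuregulin, moved opposite to Ereg and Hbegf. Its libraries held 1.65, 1.22 and 0.94 FPKM in Control, from 383, 304 and 232 counts, and 0.28, 0.31 and 0.35 FPKM in ALI, from 66, 60 and 83 counts. No library of the 2 groups overlapped, and Nrg2 fell by 1.95 ± 0.24 on the log2 scale (SE, n = 3 per group, edgeR adjusted p = 7.04e-05). MSC libraries held 1.15, 1.25 and 0.94 FPKM and tpMSC libraries 1.29, 1.14 and 0.87 FPKM, within or just below the Control range and all above ALI. Nrg2 was 3.42-fold higher in MSC than in ALI (adjusted p = 0.00123) and 3.43-fold higher in tpMSC than in ALI (adjusted p = 0.000417). Against Control the treated groups were not called (adjusted p = 0.657 and 0.672). All 5 endothelial markers were also lower in ALI than in Control, with sums of 647 to 665 FPKM and 324 to 379 FPKM. Their sums were 384 to 503 FPKM in MSC and 471 to 532 FPKM in tpMSC, and 1 and 5 of the 5 were called higher than in ALI. The 5 fibroblast markers summed to 1496 to 1582 FPKM in Control, 272 to 423 in ALI, 639 to 921 in MSC and 670.1 to 1195 in tpMSC. Most of that sum was Inmt, at 1425 FPKM in Control and 222 in ALI. Of the 5, Inmt and Tcf21 were lower in ALI against Control, Dcn was higher and 2 were not called (list median 0.14), and Inmt and Tcf21 were higher in both treated groups than in ALI. The 4 smooth muscle markers were not called in ALI against Control, but 3 were higher in MSC than in ALI and 4 in tpMSC than in ALI. Some epithelial lists moved this way too. All 5 alveolar type 1 markers were lower in ALI against Control, and 1 and 3 were higher in MSC and tpMSC against ALI. Of 4 club cell markers, 3 were lower in ALI against Control, and 1 and 3 were higher in MSC and tpMSC against ALI. The 5 alveolar type 2 markers divided, with 2 higher and 2 lower in ALI against Control. The part of all these cells in the Nrg2 level was not tested. Nrg1, the other neuregulin, ran from 0.27 to 0.56 FPKM over the 12 libraries, with both extremes in MSC, and was called in none of the 6 comparisons (lowest edgeR adjusted p = 0.312, in ALI against Control).

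**Figure D3:**
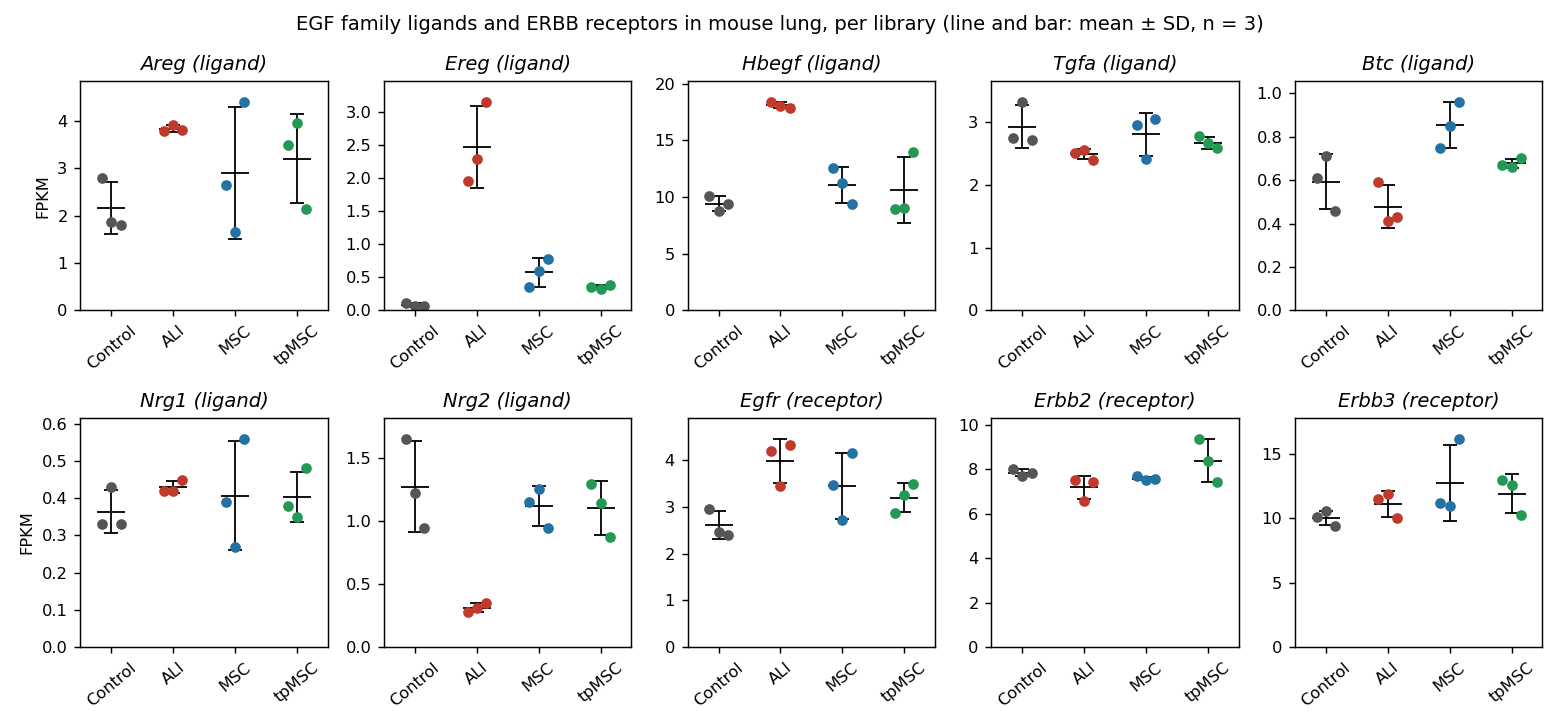
FPKM of each member in every library (points), with the mean and SD of the 3 libraries of a group (lines). ALI points stand apart from the other 3 groups for Ereg and Hbegf (above) and Nrg2 (below), and MSC points are widely spread for Areg, Nrg1 and Erbb3.

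Among the receptors, Egfr (ENSMUSG00000020122, chr11:16752203-16918158, + strand) was the one called in a comparison. Its libraries held 2.96, 2.46 and 2.41 FPKM in Control and 4.19, 3.44 and 4.33 FPKM in ALI, with no overlap. Egfr was 1.59-fold higher in ALI (log2 fold change 0.67 ± 0.15 SE, n = 3 per group, edgeR adjusted p = 0.00409). MSC libraries held 3.47, 2.73 and 4.15 FPKM and tpMSC libraries 2.87, 3.25 and 3.49, between the means of Control and ALI for 5 of 6. Differences from ALI were -0.26 ± 0.15 (SE, log2) for MSC and -0.34 ± 0.15 for tpMSC, neither called (edgeR adjusted p = 0.331 and 0.13). Against Control they were not called either (adjusted p = 0.0787 for MSC and 0.164 for tpMSC), but the MSC difference was called without MSC replicate 2 (adjusted p = 0.0241).

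Erbb2, the receptor without a ligand of its own, was listed at 8.02, 7.71 and 7.81 FPKM in Control, 7.53, 6.59 and 7.45 in ALI, 7.68, 7.52 and 7.55 in MSC and 9.38, 8.35 and 7.45 in tpMSC. It was called in no comparison, though Control and ALI did not overlap in FPKM. In tpMSC against ALI the log2 difference was 0.20 ± 0.08 (SE, edgeR adjusted p = 0.0967), and without tpMSC replicate 3 it was called (adjusted p = 0.0192). Erbb3, which binds neuregulins and has a weak kinase of its own, ran from 9.44 to 10.6 FPKM in Control and from 10.0 to 11.9 in ALI. In MSC it was 11.2, 10.9 and 16.2 FPKM, the highest in replicate 3, and in tpMSC 13.0, 12.6 and 10.2. No comparison of Erbb3 was called (lowest edgeR adjusted p = 0.111, in MSC against Control). Erbb4, the remaining receptor, was listed at 0.01 to 0.06 FPKM from 4 to 52 counts.

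Between the treatments no member was called in tpMSC against MSC, where 0.0305% of all genes were called, 0.0175% higher and 0.0131% lower. DESeq2 also called 0, and 1 of 10 members, Ereg, had an unadjusted p under 0.05 in edgeR. The difference for Ereg was -0.69 ± 0.31 (SE, log2, 95% interval -1.37 to -0.012, adjusted p = 0.385), and the MSC and tpMSC libraries overlapped between 0.35 and 0.38 FPKM. For Btc it was -0.32 ± 0.20 (95% interval -0.77 to 0.12, edgeR adjusted p = 0.569), with all 3 MSC libraries above all 3 tpMSC libraries. For Hbegf the 95% interval ran from -0.38 to 0.32 and for Nrg2 from -0.49 to 0.50 on the log2 scale. For Areg it was wider, from -0.56 to 0.88. In MSC against Control 1 of 10 members was called, Ereg, higher, where 18.7% of all genes were called, 10.7% higher and 8% lower. In tpMSC against Control 1 of 10 was called, again Ereg, higher, where 15.9% of all genes were called, 9.1% higher and 6.79% lower. DESeq2 called Btc and Egfr as well in MSC against Control (adjusted p = 0.0406 and 0.0367).

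FPKM is scaled for length, so levels can be compared between genes. The order of mean FPKM in Control was Erbb3, Hbegf, Erbb2, Tgfa, Egfr, Areg, Nrg2, Btc, Nrg1 and Ereg. The ranges of Erbb3 and Hbegf overlapped in Control, as did those of Tgfa and Egfr and those of Egfr and Areg. In ALI, Hbegf stood first, apart from Erbb3, Ereg had moved from the last place to the seventh with a range overlapping Tgfa, and Nrg2 was last. In both treated groups Erbb3 was again first, with a range that overlapped Hbegf. Summed over the 7 ligands, the level was 16.8 ± 1.36 FPKM in Control (SD, n = 3), 28.1 ± 0.29 in ALI, 19.7 ± 1.29 in MSC and 19.0 ± 1.80 in tpMSC. Hbegf made up 56.1% ± 3.3 (SD, n = 3) of that sum in Control and 64.4% ± 1.5 in ALI. Ereg made up 0.488% ± 0.146 in Control and 8.77% ± 2.09 in ALI, and Nrg2 7.47% ± 1.51 and 1.12% ± 0.11. In treated lungs the Ereg share was 2.93% ± 1.13 with MSC and 1.86% ± 0.08 with tpMSC, and the Nrg2 share 5.68% ± 1.08 and 5.88% ± 1.59. The 3 receptors summed to 20.5 ± 0.75 FPKM in Control, 22.3 ± 0.78 in ALI, 23.8 ± 3.59 in MSC and 23.5 ± 2.10 in tpMSC.

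**Figure D4:**
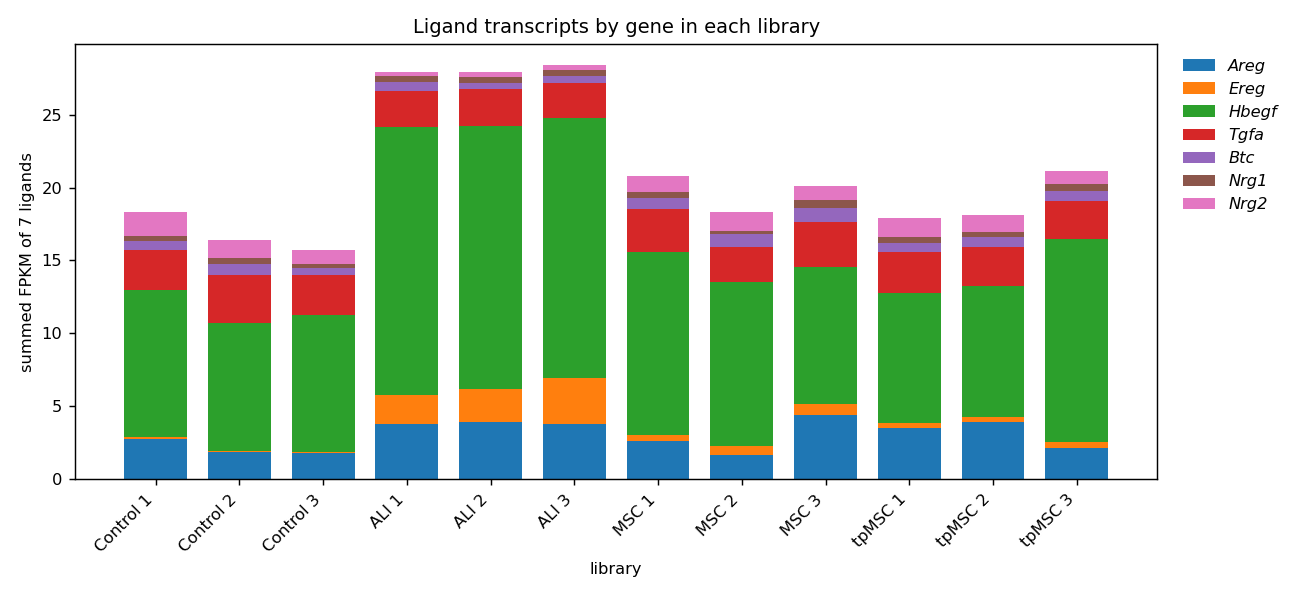
Summed FPKM of the 7 ligands in each library, stacked by gene. ALI bars reach 27.9 to 28.4 FPKM and the other 9 libraries 15.7 to 21.1, and the Ereg segment is thick in the ALI libraries alone.

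The other genes of the pathway were taken from 5 lists, of which 59 of 60 genes were in the table. Of these 59, 31 were higher and 7 lower in ALI against Control, with a median log2 fold change of 0.23. Among all genes tested 39.8% were called, 20.2% higher and 19.6% lower, with a median of -0.022. Among the remaining ligands and receptor, Epgn was called, and Egf (0.113 ± 0.035 FPKM in Control, SD, n = 3, and 0.107 ± 0.031 in ALI), Nrg4 (0.55 ± 0.18 and 0.28 ± 0.036) and Erbb4 were not. Nrg4 was called with DESeq2 (adjusted p = 0.0354) and without Control replicate 3 (edgeR adjusted p = 0.0375). Nrg3 was sought but had no row in the table.

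Genes of ligand release rose in 7 of 10 cases in ALI against Control, where 20.2% of all genes were called higher, and none fell. The list median was 0.63, and that of all genes -0.022. Among the 7 was Timp3, which encodes an inhibitor of ADAM17 and went from 103 ± 3.90 to 114 ± 5.96 FPKM (SD, n = 3 each, named after its value was seen). The Timp3 call was lost without any 1 of the 6 libraries (edgeR adjusted p from 0.0711 to 0.167). Adam17, the main sheddase of EGFR ligands, rose from 11.7 ± 0.37 to 26.6 ± 0.76 FPKM (SD, n = 3 each, edgeR adjusted p = 1.32e-05). Rhbdf2, which encodes the iRhom that escorts ADAM17 in myeloid cells, rose from 8.43 ± 0.13 to 21.7 ± 1.3 FPKM. Adam8, a metalloprotease of leukocytes, rose from 3.08 ± 0.59 to 25.2 ± 4.29 FPKM, and Furin, which cleaves the propeptides of these proteases, from 10.1 ± 0.37 to 17.3 ± 0.73. In MSC against ALI 3 of the 10 fell, where 5.21% of all genes were called lower. They were Adam8, to 12.0 ± 1.96 FPKM, Adam17, to 18.7 ± 2.26, and Rhbdf2, to 15.5 ± 2.00. The Adam17 call was lost without MSC replicate 1 (adjusted p = 0.0566), and that of Rhbdf2 without any 1 ALI library or without MSC replicate 1 (adjusted p from 0.0603 to 0.107). In tpMSC against ALI 5 of the 10 fell, where 11.5% of all genes were called lower. Among the 5 were Adam8, to 8.08 ± 1.61 FPKM, Adam17, to 14.2 ± 2.42, Rhbdf2, to 13.7 ± 2.67, and Furin, to 12.3 ± 1.64. Against Control, 5 of the 10 were called higher in MSC and 2 in tpMSC, and none was called lower. Of all genes 10.7% and 9.1% were called higher in these comparisons. The neutrophil markers given beside Ereg moved with this list too, and their part was not tested.

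Genes that relay the receptor signal divided, with 9 of 18 higher and 5 lower in ALI against Control. Of all genes 20.2% were called higher and 19.6% lower. Stat3, a transcription factor activated by cytokine and growth factor receptors, rose from 15.0 ± 0.14 to 31.7 ± 2.45 FPKM. Map2k1, which encodes the kinase MEK1, rose from 20.4 ± 1.12 to 28.0 ± 1.46 FPKM. The 5 that fell were Gab1, a docking protein of EGFR, from 13.6 ± 0.65 to 7.53 ± 0.071 FPKM, and Grb7, Plcg1, Mapk3 and Cblb, which are named after their values were seen. Grb7, an adaptor of ERBB2, fell from 9.99 ± 0.37 to 5.09 ± 0.47 FPKM, and Mapk3, which encodes the kinase ERK1, from 115 ± 3.57 to 80.2 ± 3.91. The Cblb call was lost without ALI replicate 1 (edgeR adjusted p = 0.0567). In MSC against ALI 3 of 18 rose and 2 fell, where 5.03% of all genes were called higher and 5.21% lower. In tpMSC against ALI 4 rose and 7 fell, where these shares were 11.6% and 11.5%. Gab1 rose to 10.5 ± 2.00 FPKM with MSC and 10.8 ± 0.55 with tpMSC, but the MSC call was lost without any 1 ALI library or MSC replicate 1 or 3 (edgeR adjusted p from 0.0658 to 0.112). Grb7 and Plcg1 were also called higher in MSC against ALI, and these calls were lost under 9 and 6 of 15 alternatives. Stat3 was called lower in tpMSC against ALI, and that call was lost under 8 of 15.

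Of 14 inhibitors of the receptors or of ERK signalling, 5 rose and 1 fell in ALI against Control, a share near the 39.8% called among all genes. The tyrosine phosphatase genes Ptpn1 and Ptprj rose from 15.6 ± 0.70 to 37.5 ± 3.21 and from 7.43 ± 0.26 to 14.5 ± 0.76 FPKM. Rnf41, a ubiquitin ligase for ERBB3, rose from 5.13 ± 0.19 to 6.91 ± 0.40 FPKM, and Spry1, a sprouty inhibitor, fell from 42.3 ± 1.87 to 27.9 ± 2.78. With treatment 3 of 14 fell in MSC against ALI and 5 of 14 in tpMSC against ALI, and none rose. Of all genes 5.21% and 11.5% were called lower in these comparisons. Ptpn1 fell to 23.4 ± 1.66 FPKM with MSC and 21.8 ± 4.69 with tpMSC, and Ptprj to 9.94 ± 0.59 and 8.31 ± 1.65.

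Of 13 genes known to respond to ERK activity, 9 rose in ALI against Control (list median 0.83) and 1, Etv5, fell, from 44.3 ± 4.49 to 22.7 ± 1.29 FPKM. Among all genes 20.2% were called higher and 19.6% lower, with a median of -0.022. Etv5 is named after its value was seen. Dusp5, a nuclear phosphatase of ERK, rose from 5.4 ± 0.70 to 15.1 ± 0.85 FPKM, and Myc, a transcription factor of growth, from 2.91 ± 0.058 to 8.64 ± 0.97. Phlda1 rose from 18.7 ± 0.47 to 42.2 ± 1.87 FPKM and Ier3, an immediate early gene, from 89.2 ± 6.33 to 152 ± 9.03. In MSC against ALI 9 of 13 fell (list median -0.70), and in tpMSC against ALI also 9 of 13 (list median -0.93), and none rose. Of all genes 5.21% and 11.5% were called lower, with medians of 0.018 and 0.01. Against Control, 2 of the 13 were higher and 5 lower with MSC (list median -0.30). Among all genes 10.7% were called higher and 8% lower there. With tpMSC 2 were higher and 4 lower than in Control (list median 0.007), where these shares were 9.1% and 6.79%. Dusp5 fell to 3.53 ± 0.34 FPKM with MSC and 5.3 ± 0.26 with tpMSC, and Ier3 to 68.5 ± 7.51 and 70.1 ± 10.1. The tpMSC call for Phlda1 was lost without any 1 ALI library or tpMSC replicate 1 or 2 (edgeR adjusted p from 0.0841 to 0.148). Many other receptors also activate ERK. Neutrophil markers, given beside Ereg, were higher in ALI and lower with both treatments as well, and their part was not tested. None of the 59 pathway genes was called in tpMSC against MSC with edgeR, 8 had an unadjusted p under 0.05, and DESeq2 called 1, Dusp5, higher in tpMSC. Without tpMSC replicate 3, edgeR called 5, among them Dusp5.

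**Figure D5:**
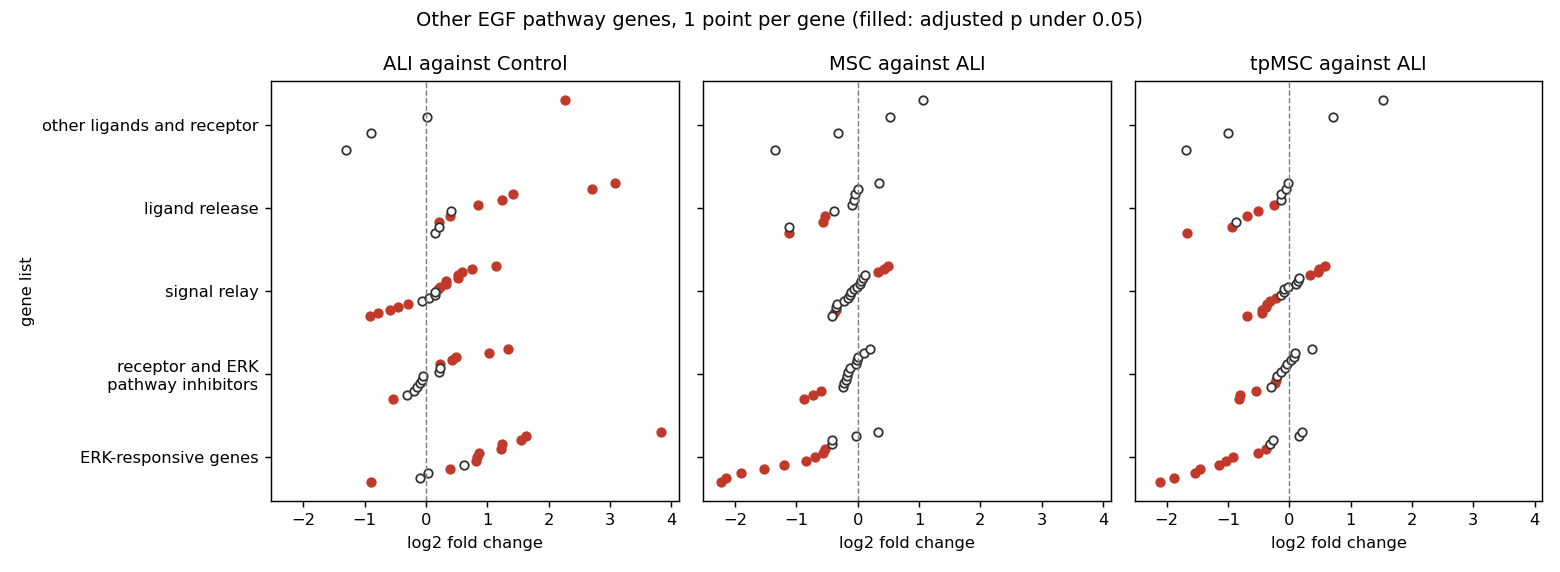
Log2 fold change of the other pathway genes, 1 point per gene, in 5 lists and 3 comparisons; filled points were called. ERK-responsive and ligand release genes lie mostly right of 0 in ALI against Control and left of 0 in both treated groups against ALI.

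Over the 12 libraries, the genes most like Hbegf, the most abundant ligand, were sought among 13047 genes with a mean of at least 1 FPKM by Pearson correlation of log2(FPKM + 1). They were Klra2 and Rap1gap2 (r = 0.97 each), Bhlhe40 (r = 0.969) and Scamp1 (r = 0.965). Bhlhe40, a transcriptional repressor, was listed at 14.0 ± 0.75 FPKM in Control, 26.9 ± 1.58 in ALI, 15.8 ± 1.05 in MSC and 16.04 ± 3.10 in tpMSC (SD, n = 3 each). For Erbb3, the most abundant receptor in the mean of all libraries, the closest were Uhrf2 (r = 0.907), Secisbp2l (r = 0.898), Thap2 (r = 0.892) and B3galnt2 (r = 0.881). These correlations describe 12 libraries that share their groups and depth.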

How the data were processed

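RNA from whole mouse lung was sequenced in 12 libraries, and the authors deposited raw read counts and FPKM for 38349 genes, per the file headers. Per the labels' protocols, poly(A) RNA was selected and dUTP marked the second strand. Tools listed in the submitters' processing notes, without roles, are HISAT2 2.0.4, cutadapt 1.9, edgeR, DESeq2 and StringTie 1.3.4d, with build GRCm38. Which program counted reads, with which annotation and whether by strand, is not given in the sources used here. Deposited gene positions equal those of GENCODE M21 on GRCm38 for 1.78% of matched genes, while 87.1% have the same length. For most genes the deposited positions therefore differ from the listed build, and the reason is not given in the sources used here. Positions printed are those of GENCODE M21, matched by gene ID.

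Groups came from the sample titles. Low genes were removed by filterByExpr and libraries scaled by TMM. A quasi-likelihood model with a mean for each of the 4 groups was then fitted to the 12 libraries together (edgeR 4.0.16 under R 4.3.3). A gene was called at a Benjamini-Hochberg adjusted p under 0.05 over 22915 genes. Levels are deposited FPKM, mean ± SD. Standard errors come from the fold change and its F statistic, and intervals are 95%. The steps were tested on simulated data. Alternatives used DESeq2 1.42.0, limma 3.58.1, other scalings and filters, a replicate block and each library left out.

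The members, gene lists and tests were chosen with earlier results of these data known. Named are all members, all genes of the list of remaining ligands and receptor, and from each other list up to 4 genes with the smallest p in ALI against Control and up to 2 called in tpMSC against MSC. A gene of the signal relay list that this rule names is not reported here. Also named are the 4 genes most like the most abundant ligand and receptor. Libraries of 1 group differed by more than counting noise, so none was counted as a duplicate.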

Additional observations from a re-analysis of the deposited data

How the results depend on the processing

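Of 13 called values of members, 11 kept direction and call under all 15 alternatives, and none changed sign. The exceptions were Btc in MSC against ALI and Ereg in tpMSC against Control on log2(FPKM + 1) in limma (adjusted p = 0.102), where 0 members were called. In MSC against Control DESeq2 called 3 members in place of 1. For other pathway genes in tpMSC against MSC, DESeq2 called 1 in place of 0. Among named pathway genes, 40 of 54 called values were kept under every alternative. With single libraries left out, the members called were 4 to 5 in ALI against Control, 3 to 4 in MSC against ALI, 3 to 4 in tpMSC against ALI, 0 to 0 in tpMSC against MSC, 1 to 2 in MSC against Control and 1 to 1 in tpMSC against Control. Other pathway genes called were then 28 to 34 against 38, 12 to 22 against 20 (12 without MSC replicate 1), 19 to 32 against 30 (19 without tpMSC replicate 1) and 0 to 5 against 0 (5 without tpMSC replicate 3) in the first 4 comparisons. Erbb3 in MSC against ALI was 0.15, not called, and ran from -0.062 without MSC replicate 3 to 0.25 without MSC replicate 2. Where a difference was within its own standard error no direction is given, and over the 47 member values not called, 17 changed sign under some alternative. The cause was not tested. Replicate numbers did not pair the libraries: same-numbered libraries correlated from -0.11 to 0.10, and 4 of 12 matched best with their own number. With the number as a replicate block 3 members were called in place of 4 in MSC against ALI (Btc had an adjusted p of 0.0536), and the counts of members in the other comparisons were 4, 3, 0, 1 and 1. Other pathway genes called with the block were 37, 19, 27 and 0. At 3 to 40 counts for Epgn and 4 to 52 for Erbb4, both are at the limit of this depth.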
